A study of Arabidopsis thaliana with 12 samples.

Results

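The 26S proteasome subunits are 32 nuclear genes of Arabidopsis thaliana, taken by identifier as 1 listed gene for each subunit: 7 alpha and 7 beta subunits of the 20S core, 6 RPT ATPases and 12 RPN subunits of the cap. Of these, 31 were among the 13307 genes of the deposited table, 13 core and 18 cap genes. The remaining core gene, PAB1 (an alpha subunit), was not analysed here. The members were listed by name and not selected on a measured value, though with earlier results of these data known.

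The samples were whole wild type Col-0 seedlings, 2 weeks old, incubated for 2 h in the light in water with Rose Bengal (RB) at 0, 10, 100 or 400 µM. The light was 30 µE per square metre and second at every dose. RB is a photosensitizer: in light it passes energy to oxygen and yields singlet oxygen. The seedlings at 0 µM went through the same transfer and light without it. Transcripts were counted by bulk MARS-seq, a method that sequences the poly(A) end of each mRNA, in 12 libraries, 3 at every dose. The methods for RNA extraction and qRT-PCR describe biological replicates of pooled whole seedlings. The labels do not say whether the 3 libraries of a dose were such replicates, so that the spread behind each p-value is that between these samples and may be technical.

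The 26S proteasome is the protease that degrades proteins marked with ubiquitin chains in the cytosol and nucleus. Its core is a barrel of alpha and beta rings with the cutting sites inside the beta rings, and its cap holds a ring of RPT ATPases, which unfold the substrate and open the gate, and RPN subunits, which receive the substrate and remove its ubiquitin. In plants, NAC053 and NAC078, a pair of transcription factors, are known to raise many subunit genes together when proteasome capacity falls short. The question put to these data was whether the subunit genes moved with the dose of RB, and whether core and cap moved alike.

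Library totals ran from 1499791 to 3608636 reads, so that 1 read was worth 0.262 to 0.615 CPM (read counts scaled to library size with TMM factors). Markers set for the treatment were high in the treated libraries: HSFA2, a heat shock transcription factor, rose by 5.58 on the log2 scale at 400 µM (adjusted p = 3.47e-10, edgeR's quasi-likelihood test), and BAP1, a singlet oxygen marker, by 1.92 (adjusted p = 5.83e-08). A component of the differences within doses took 33.4% of their variance (6904 genes). The scores of a dose sum to 0, so that 1 of its 3 libraries lies opposite the other 2 by construction. Such libraries were replicate 1 at 10 µM (score 0.363), replicate 1 at 100 µM (0.654), replicate 2 at 400 µM (0.282) and untreated replicate 2 (0.104). This position alone does not mark a library as an outlier. On the other side, replicate 2 at 100 µM was the farthest from 0 (-0.383). Most results that rest on the first 3 libraries are also given without them. Of 9 root markers, 5, 4 and 7 fell at 10, 100 and 400 µM and none rose, and their summed level was 221 to 301 CPM at 0 µM and 61.4 to 78.9 CPM at 400 µM. EXPA7, EXPA18, PRP3 and COBL9, all genes of root hairs, were at 0 reads in at least 1 library at 400 µM. Of 8 shoot markers, 0, 2 and 1 fell, and their sum was 26520 to 27635 CPM at 0 µM, 20824 to 24419 CPM at 10 µM, 19953 to 22953 CPM at 100 µM and 21247 to 27730 CPM at 400 µM. All libraries at 10 and 100 µM were thus below the untreated ones, and those at 400 µM overlapped them. In whole seedlings, fewer cells of a type and less RNA per cell cannot be told apart, and the part of these changes in the results below was not tested.

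The members fell into a well-counted and a sparse set, with no gene between them. In 16 genes the mean over the 12 libraries was 48.8 to 294 CPM, and in the other 15 it was 1.00 to 4.11 CPM. Between these bounds, which the members themselves set, lay 46.1% of all genes in the table. The well-counted set held the core genes PAC1, PAD1, PAF1, PBA1, PBE1 and PBG1 and the cap genes RPT2A, RPT5A, RPT6A, RPN1A, RPN2A, RPN3A, RPN5A, RPN6, RPN10 and RPN11. The sparse set held PAA1, PAE1, PAG1, PBB1, PBC1, PBD1, PBF1, RPT1A, RPT3, RPT4A, RPN7, RPN8A, RPN9A, RPN12A and RPN13. Core and cap were both split in this way, since 3 of 6 alpha, 4 of 7 beta, 3 of 6 RPT and 5 of 12 RPN genes were sparse. The numbers are 3′ reads per gene and not levels per length, and the gap is not read here as a difference in subunit amount. Its cause was not tested.

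**Figure D1:**
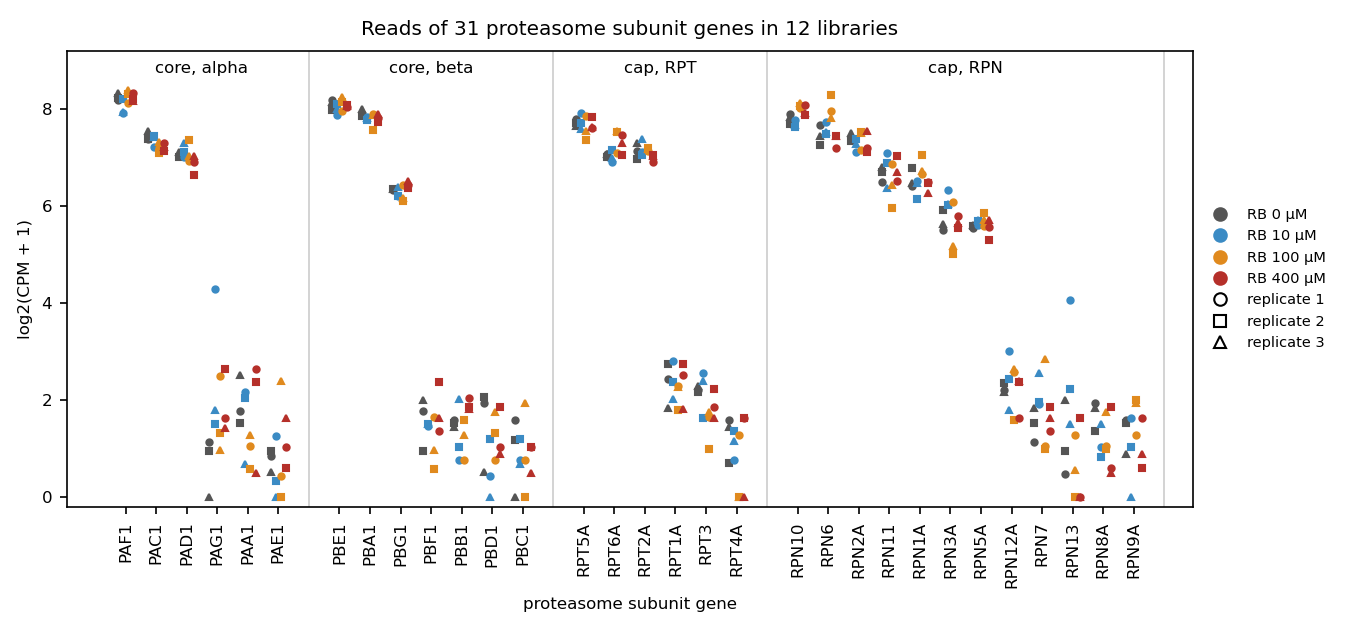
Level of each of the 31 subunit genes, as log2(CPM + 1), in the 12 libraries, with genes grouped by class and ordered by mean; colours are doses and symbols are replicates. The 16 well-counted genes lie well above the 15 sparse ones in each class, and RB 10 µM replicate 1 stands out in PAG1 and RPN13.

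Many Arabidopsis subunits are encoded by a pair of genes, and the second copy did not fill the gap. Of the 15 sparse members, 9 have a second copy with a row, and in 8 of the 9 that copy was sparse too. The exception was RPT4B, at 57.3 CPM beside 1.13 CPM for RPT4A. For PAG1, PBF1, RPT3, RPN7 and RPN13 no second copy was listed, and that of RPN12A was not analysed here. Of the 16 well-counted members, 9 have a copy with a row, and in all 9 that copy was above 10 CPM, from RPT5B at 19.3 CPM to PAD2 at 143 CPM. An exon of another gene lay within the last 300 bases of the gene in 6 of 15 sparse members (PBB1, PBD1, PBF1, RPT1A, RPT3 and RPN7), in 1 of 16 well-counted members (RPN11) and in 25.1% of 12985 protein-coding genes of the table. Whether that overlap bears on the counts was not tested.

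The dose comparisons left nearly all subunit genes without a call. With edgeR's quasi-likelihood test on all 13307 genes and a Benjamini-Hochberg adjusted p under 0.05, 0 of 31 members were called at 10 µM against 0 µM, where 3.73% of all genes were. At 100 µM 1 of 31 was called, upward (RPN6, a cap gene), against 11.5% of all genes, and 7.32% that were called upward. At 400 µM 0 of 31 were called, against 15.5% of all genes. At an unadjusted p under 0.05 the counts were 2, 3 and 0 of 31, against 14.5%, 23.2% and 26.4% of all genes. DESeq2 called 1, 1 and 0 members, against 4.76%, 13.4% and 14.7% of the genes to which it gave an adjusted p. It gave one to 25, 25 and 31 of the members. The libraries of a dose lay wholly above the untreated ones for 3 of 31 members at 10 µM (PAG1, RPN3A and RPN7), where 10.4% of all genes did so, and wholly below for 1 (PBA1), against 9.70%. At 100 µM they lay above for 3 (RPT6A, RPN6 and RPN10), against 14.0%, and below for 3 (PAA1, PAC1 and RPT3), against 13.4%. At 400 µM they lay above for 3 (PAG1, PBB1 and PBG1), against 17.4%, and below for 1 (PAC1), against 17.0%. None of these 6 counts was a larger share of the members than of all genes. Between treated doses no member was called, against 4.47% of all genes for 100 against 10 µM, 0.0451% for 400 against 100 µM and 7.68% for 400 against 10 µM. The unadjusted counts there were 6, 2 and 3, against 20.2%, 7.89% and 22.4% of all genes. DESeq2 called 0 of 20, 1 of 16 and 1 of 25 members with an adjusted p, against 6.55%, 0.423% and 8.90% of genes. In the F test over the 3 doses, RPN6 and RPN13 were called, 2 of 31 against 14.6% of all genes.

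Sparse genes are seldom called, so the well-counted members are better read beside genes of at least 10 CPM. Of the 16 well-counted members, 0, 1 and 0 were called at 10, 100 and 400 µM, and of 6904 genes with at least that mean 6.32%, 18.5% and 24.0% were. All 16 had a 95% interval of the log2 fold change against 0 µM that lay inside -1 to 1 at each of the 3 doses, that is, less than 2-fold either way. Among genes of at least 10 CPM with an interval, 82.2%, 69.9% and 66.4% did so at 10, 100 and 400 µM. Those genes are not matched in level to the 16 and had wider intervals, with a median half-width of 0.43, 0.43 and 0.44. The fitted changes of the 16 ran from -0.22 to 0.46 at 10 µM, from -0.24 to 0.57 at 100 µM and from -0.22 to 0.23 at 400 µM, with medians of -0.05, 0.02 and -0.04. The median half-width of their intervals was 0.31 at each dose, so for many of them a smaller shift could not be told from 0. For the 15 sparse members the median half-width was 1.61, 1.57 and 1.62, and only very large changes could have been seen.

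**Figure D2:**
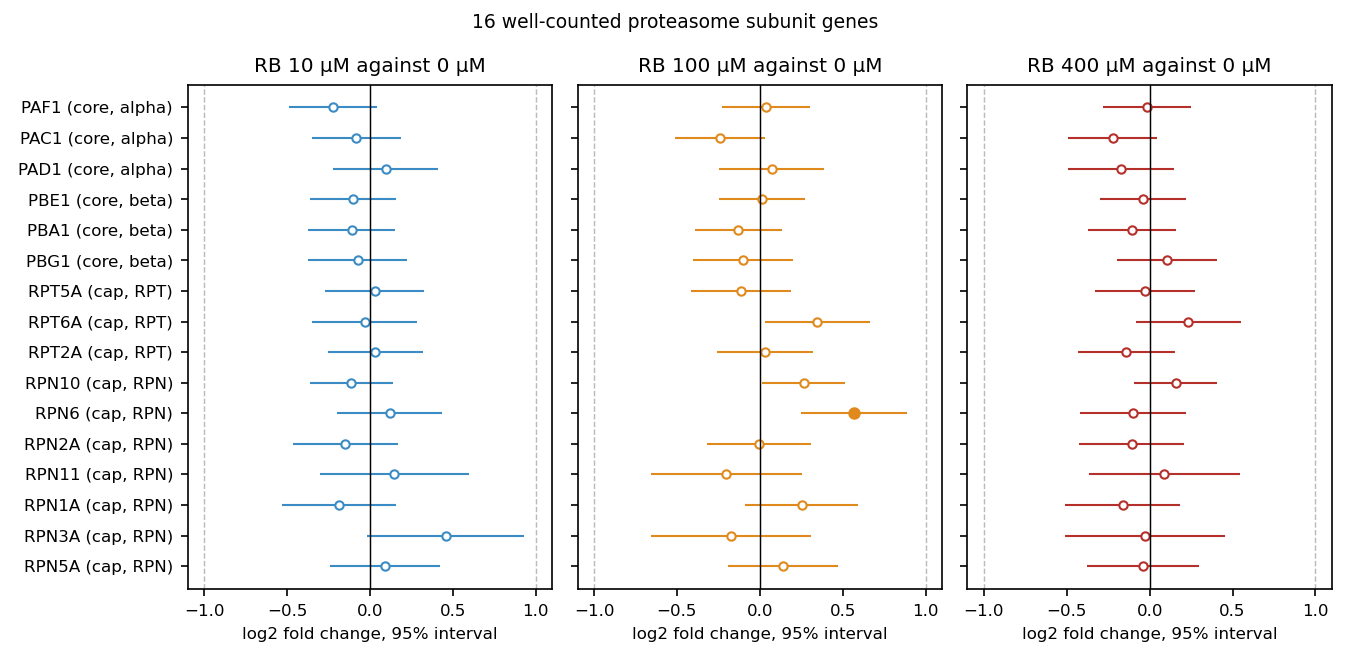
Log2 fold change of the 16 well-counted subunit genes at 10, 100 and 400 µM RB against 0 µM, with 95% intervals; the filled point passed the test at an adjusted p under 0.05 and dashed lines mark a change of 2-fold. All intervals lie between the dashed lines, and only RPN6 at 100 µM, at 0.57, is called.

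The alpha subunits form the outer rings of the core and its gate. PAF1 (AT5G42790, chromosome 5, 17159044-17161156 in TAIR10.1) had the most reads of the class, with 291, 300 and 322 CPM without RB. At 10 µM it had 241, 295 and 245 CPM, at 100 µM 280.1, 319 and 337 CPM, and at 400 µM 323, 294 and 286 CPM. The doses overlapped, and the log2 fold change was -0.22 ± 0.13 (SE), 0.04 ± 0.13 and -0.02 ± 0.13 at 10, 100 and 400 µM (n = 3 per dose, adjusted p of edgeR's quasi-likelihood test 0.464, 0.897 and 0.958). PAC1 was the only well-counted alpha gene whose treated libraries all lay below the untreated ones at 2 doses, from 167 to 186 CPM at 0 µM to 136 to 159 CPM at 100 µM and 141 to 157 CPM at 400 µM. PAC1 did not pass edgeR's quasi-likelihood test (adjusted p = 0.281 and 0.294). PAC1 was named after its values were seen.

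PAG1 (AT2G27020, chromosome 2, 11528230-11531178), the alpha gene with the smallest p in the F test, rested on few reads. It had 1.21, 0.95 and 0 CPM at 0 µM, 18.7, 1.84 and 2.46 CPM at 10 µM, 4.65, 1.502 and 0.95 CPM at 100 µM and 2.09, 5.24 and 1.69 CPM at 400 µM. Of its 64 reads at 10 µM, 53 (82.8%) were in replicate 1. The log2 fold change at 10 µM was 3.30 ± 0.94 (adjusted p = 0.0588, edgeR's quasi-likelihood test). DESeq2 called it (3.41, adjusted p = 0.0192), as did edgeR with the replicate number as a block (3.01, adjusted p = 0.0458). With replicate 1 of 10 µM left out of edgeR's fit, the change was 1.42 (adjusted p = 0.686).

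The beta subunits carry the active sites. PBE1 (AT1G13060, chromosome 1, 4452190-4454900), a beta5 subunit, which has the chymotrypsin-like site, was the best counted of them. It stood at 289.9, 251 and 285 CPM at 0 µM, 237, 276 and 255 CPM at 10 µM, 249, 282 and 303 CPM at 100 µM, and 265, 269.8 and 269.2 CPM at 400 µM. All 4 doses overlapped, with a log2 fold change of -0.10, 0.02 and -0.04 (SE 0.12 each). PBA1, the beta1 subunit with the caspase-like site, had log2 fold changes of -0.11, -0.13 and -0.11, and PBG1, a beta7 subunit, -0.07, -0.10 and 0.10, none past the test. PBB1, a beta2 subunit with the trypsin-like site, was sparse, at 1.38 to 2.76 CPM as the mean of a dose. PBD1 (AT3G22630, chromosome 3, 8009540-8010862) had the smallest p of the class with 7, 10 and 1 reads at 0 µM, 1, 5 and 0 at 10 µM, 2, 3 and 5 at 100 µM, and 2, 5 and 2 at 400 µM. Its doses overlapped, and its F test adjusted p was 0.58 (edgeR's quasi-likelihood test).

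The RPT ATPases thread the substrate into the core. RPT5A (AT3G05530, chromosome 3, 1603359-1606243) had 221, 211 and 201 CPM at 0 µM, 242, 209.9 and 193 CPM at 10 µM, 232, 164 and 188 CPM at 100 µM, and 194, 228 and 199 CPM at 400 µM, with overlap at each dose. RPT6A (AT5G19990, chromosome 5, 6751798-6755315) had 134, 128 and 135 CPM at 0 µM, 119, 143 and 126 CPM at 10 µM, 137, 184 and 186 CPM at 100 µM, and 176, 133 and 158 CPM at 400 µM. Its libraries at 100 µM all lay above the untreated ones, though replicate 1 did so by little. The log2 fold change at 100 µM was 0.35 ± 0.15 (adjusted p = 0.163, edgeR's quasi-likelihood test). With replicate 1 of that dose left out, the change was 0.48 (adjusted p = 0.0334), so the call turned on that library. RPT2A stayed within 0.15 of 0 on the log2 scale at each dose.

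An RPN gene was the only member that edgeR's quasi-likelihood test called against untreated seedlings with all libraries in the fit. RPN6 (AT1G29150, chromosome 1, 10180302-10182808) encodes a lid subunit that braces the cap against the core in the complexes of yeast and mammals. It had 204, 152 and 175 CPM at 0 µM and 212, 179 and 184 CPM at 10 µM. At 100 µM it had 248, 313 and 226 CPM, and at 400 µM 147, 175 and 173 CPM. The libraries at 100 µM were higher than all 9 others (such a gap lay between 10 and 100 µM in 10.6% of all genes, and between 100 and 400 µM in 6.39%), while those at 10 and 400 µM overlapped the untreated ones. RPN6 was 1.48-fold higher at 100 µM than at 0 µM (95% interval 1.19 to 1.85), a log2 fold change of 0.57 ± 0.15 (adjusted p = 0.0171, edgeR's quasi-likelihood test). At 400 µM it was -0.10 ± 0.15 (adjusted p = 0.742). From 100 to 400 µM it was -0.67 ± 0.15, which did not pass edgeR's quasi-likelihood test (adjusted p = 0.172) and passed that of DESeq2 (adjusted p = 0.0257). The call at 100 µM was lost when untreated replicate 2, untreated replicate 3 or replicate 2 at 100 µM was left out (adjusted p of edgeR's test 0.108, 0.0766 and 0.138). It was also lost when library totals replaced the TMM factors (log2 fold change 0.46, adjusted p = 0.0606).

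RPN10 (AT4G38630, chromosome 4, 18056988-18059598), a ubiquitin receptor, was the RPN gene with the most reads. It had 238, 206 and 227 CPM at 0 µM, 218, 198 and 205 CPM at 10 µM, 259, 269 and 278 CPM at 100 µM, and 269.7, 237 and 242 CPM at 400 µM. All libraries at 100 µM lay above the untreated ones. The log2 fold change at 100 µM was 0.26 ± 0.12 (adjusted p = 0.185, edgeR's quasi-likelihood test), so RPN10 did not pass.

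RPN3A (AT1G20200, chromosome 1, 7001087-7004432), a lid subunit named after its values were seen, went the other way. It had 44.4, 59.5 and 48.6 CPM at 0 µM, 80.0, 64.5 and 65.2 CPM at 10 µM, 66.9, 31.5 and 35.3 CPM at 100 µM, and 54.4, 46.1 and 49.5 CPM at 400 µM. At 10 µM all libraries were above the untreated ones, and at 100 µM replicate 1 was above them while the other 2 were below. The log2 fold change was 0.46 ± 0.22 at 10 µM and -0.18 ± 0.23 at 100 µM (adjusted p = 0.37 and 0.712, edgeR's quasi-likelihood test). Without RB 100 µM replicate 1 it was -0.61 at 100 µM (adjusted p = 0.0411), so that this call too turned on 1 library. Leaving that library out took the calls at 100 µM from 1 to 3 members, RPN6 and RPT6A higher and RPN3A lower.

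Of the other well-counted RPN genes, RPN1A and RPN2A, scaffolds of the base, had log2 fold changes of 0.25 and -0.00 at 100 µM. RPN5A, a lid subunit, had 0.14 there, and RPN11, the deubiquitinase of the lid, -0.20. RPN13 (AT2G26590, chromosome 2, 11310957-11315524), a further ubiquitin receptor, was called in the F test (adjusted p = 0.031, edgeR's quasi-likelihood test) on very few reads. It had 1, 3 and 7 reads at 0 µM, 45, 14 and 3 at 10 µM, 4, 0 and 1 at 100 µM, and 0, 4 and 0 at 400 µM. Replicate 1 at 10 µM held 72.6% of the 62 reads of its dose, and without it the F test gave an adjusted p of 0.459. The call was lost in 7 of the 12 fits that left out 1 library. The same library had the highest sum over the 15 sparse members, 67.6 CPM, against 16.5 to 44.0 CPM in the other 11.

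**Figure D3:**
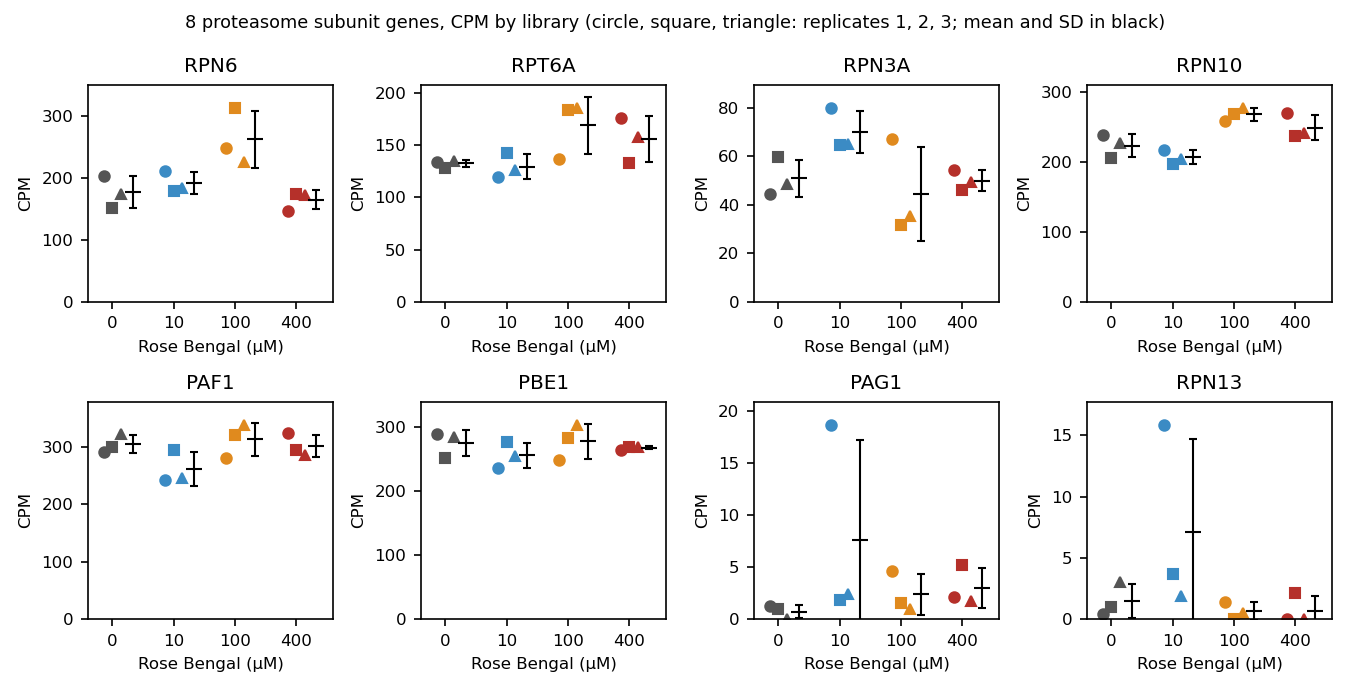
CPM of 8 subunit genes by dose, with 1 point per library, and the mean ± SD (n = 3) in black, cut off at 0 where the SD passes it. RPN6 is highest at 100 µM, RPN3A at 100 µM is split between replicate 1 and the others, and PAG1 and RPN13 rest on RB 10 µM replicate 1.

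Core and cap were then compared as sums. The 13 core genes summed to 1219 ± 54.7 CPM at 0 µM (SD, n = 3), 1138 ± 52.8 at 10 µM, 1182 ± 61.8 at 100 µM and 1161 ± 37.0 at 400 µM. The 18 cap genes summed to 1369 ± 39.9, 1383 ± 68.3, 1522 ± 28.8 and 1367 ± 17.7 CPM. With TMM factors, the cap sum was thus higher at 100 µM (1504 to 1555 CPM) than in each untreated library (1324 to 1397 CPM), by 1.11-fold. The core sums overlapped at all doses. Within the cap, the RPN sum at 100 µM was 1.15 times and the RPT sum 1.04 times that at 0 µM. The TMM factors were 1.005 to 1.053 at 0 µM and 0.906 to 0.999 at 100 µM. Taken per total reads, without these factors, the cap sums at 100 µM overlapped the untreated ones, so that gap depends on the scaling. The ratio of core to cap within a library does not.

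The log2 ratio of core to cap was -0.20, -0.18 and -0.13 in the untreated libraries, -0.43, -0.19 and -0.22 at 10 µM, -0.41, -0.42 and -0.27 at 100 µM, and -0.18, -0.29 and -0.24 at 400 µM. The libraries at 100 µM lay below all untreated ones, and those at 10 and 400 µM overlapped them. The mean difference from 0 µM was -0.11, -0.20 and -0.07 at the 3 doses, beside a pooled SD between replicates of 0.09. No p is given for these sums, since the genes in them were picked by name with results of these data known. Without RPN6 the difference at 100 µM was -0.12, and with the second copies in both sums it was -0.20. When each gene counted alike, as the difference of mean log2(CPM + 1), it was -0.03 at 100 µM and 0.22 at 400 µM, so that the sign turned at 400 µM. Sparse genes weigh as much as well-counted ones in this measure, and its SD at 0 µM was 0.16 (n = 3). The median log2 fold change was -0.18, -0.10 and -0.02 for core genes and 0.03, 0.01 and -0.09 for cap genes at 10, 100 and 400 µM, beside 0.02, -0.04 and -0.04 for all genes. The pooled SD between replicates of the median log2 level was 0.77 for core and 0.15 for cap genes. For the 6 well-counted core genes the median changes were -0.09, -0.04 and -0.07, and for the 10 well-counted cap genes 0.03, 0.09 and -0.04.

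**Figure D4:**
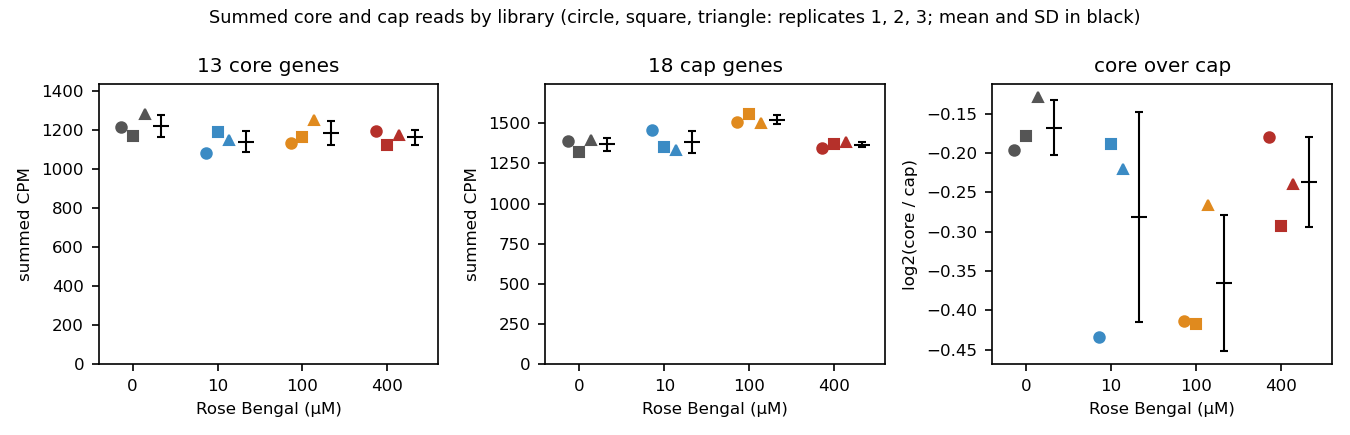
Summed CPM of the 13 core genes and of the 18 cap genes, and the log2 ratio of core to cap, by dose, with 1 point per library and the mean ± SD (n = 3) in black; the axis of the ratio does not start at 0. With TMM factors, the cap sums at 100 µM, 1504 to 1555 CPM, lie above the untreated ones, but per total reads they overlap. The ratios at 100 µM lie below the untreated ones.

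Of 19 second gene copies of the subunits with a row, 0 were called at any dose against 0 µM with edgeR's quasi-likelihood test or with DESeq2, and 3, 1 and 0 had an unadjusted p under 0.05, against 14.5%, 23.2% and 26.4% of all genes. In the F test over the doses 1 copy was called, PAB2, the second copy of PAB1 (adjusted p = 0.0376, edgeR's quasi-likelihood test). Of its 69 reads at 10 µM, 69.6% were in replicate 1, and no value of PAB2 without that library is given here. The copies' median log2 fold change was 0.09, 0.03 and 0.06 at 10, 100 and 400 µM. Their sum was 563 ± 11.7 CPM at 0 µM and 582 ± 16.4 CPM at 400 µM (SD, n = 3).

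The known regulators of these genes were each called at 2 doses. NAC078 (AT5G04410, chromosome 5, 1243684-1246684) had 121.1, 111 and 121.6 CPM at 0 µM, 189, 134 and 153 CPM at 10 µM, 203, 189 and 219.5 CPM at 100 µM, and 201, 195 and 192 CPM at 400 µM. All treated libraries were above all untreated ones. The log2 fold change was 0.43 ± 0.14 at 10 µM (adjusted p = 0.115, edgeR's quasi-likelihood test), 0.79 ± 0.14 at 100 µM (adjusted p = 0.000569) and 0.74 ± 0.14 at 400 µM (adjusted p = 0.000903). NAC053 (AT3G10500, chromosome 3, 3271217-3274176) had 2.42, 4.43 and 6.95 CPM at 0 µM, 20.4, 10.8 and 13.5 CPM at 10 µM, 11.1, 5.51 and 6.20 CPM at 100 µM, and 6.79, 17.8 and 11.005 CPM at 400 µM. It rose by 1.69 ± 0.42 at 10 µM and 1.37 ± 0.43 at 400 µM (adjusted p = 0.0247 and 0.0379, edgeR's quasi-likelihood test), and at 100 µM the change was 0.76 ± 0.45 (adjusted p = 0.331). The call of NAC053 at 10 µM was lost when untreated replicate 1, untreated replicate 2 or replicate 1 at 10 µM was left out, and that at 400 µM without either of the same untreated libraries and without replicate 2 or 3 of the dose.

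NAC053 and NAC078 are known to bind a promoter element whose core is TGGGC, so the 250 bases before each annotated gene start were searched for these letters on both strands in the TAIR10.1 reference. They occurred in 15 of 32 members (46.9%), in 8 of 14 core and 7 of 18 cap genes, and in 25.5% of 12984 protein-coding genes of the table. A match is a description of the letters and not a site. The stretches below are upstream of the gene with the call, RPN6, and of 4 members with several matches, and end at the base before the gene start. All lie on the plus strand, in capitals are TGGGC and its reverse complement GCCCA, and for RPN6 only the 76 bases free of a neighbouring gene are given.

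RPN6 (chr1:10180226-10180301): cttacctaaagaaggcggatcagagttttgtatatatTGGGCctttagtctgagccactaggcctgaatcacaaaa
PAD1 (chr3:19030776-19030925): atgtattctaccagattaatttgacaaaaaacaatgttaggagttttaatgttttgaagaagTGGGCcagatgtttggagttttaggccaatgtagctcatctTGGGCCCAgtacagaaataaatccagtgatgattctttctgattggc
PBA1 (chr4:15188594-15188743): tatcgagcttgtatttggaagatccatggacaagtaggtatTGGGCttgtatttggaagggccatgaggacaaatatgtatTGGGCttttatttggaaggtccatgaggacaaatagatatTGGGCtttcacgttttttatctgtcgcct
RPT2A (chr4:14312133-14312282): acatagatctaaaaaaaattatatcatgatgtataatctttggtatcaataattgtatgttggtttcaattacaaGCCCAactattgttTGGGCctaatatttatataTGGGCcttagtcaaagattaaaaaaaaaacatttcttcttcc
RPN1A (chr2:8858812-8858961): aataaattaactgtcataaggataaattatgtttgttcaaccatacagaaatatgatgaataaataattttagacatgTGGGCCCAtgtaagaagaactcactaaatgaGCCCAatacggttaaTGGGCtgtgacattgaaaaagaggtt

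The printed stretch of RPN6 holds 1 match, those of PAD1, PBA1 and RPT2A hold 3 each, and that of RPN1A holds 4, with overlapping matches on opposite strands counted apart. The 8 well-counted members with a match had a median log2 fold change of -0.02, -0.04 and -0.12 at 10, 100 and 400 µM, and the 8 without one had -0.07, 0.03 and -0.02. A heat shock element (GAANNTTC) was found upstream of 4 of 32 members (12.5%, against 9.30% of genes), and the telo-box AAACCCTAA upstream of 1 (3.12%, against 1.78%).

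Of 19 partner genes with a row (activators, shuttles, deubiquitinases, E1 enzymes and the segregase CDC48 with the factors above), 2 rose and none fell at each of the 3 doses. Of all genes, 3.73%, 11.5% and 15.5% were called in either direction, and the count was no larger a share than that at 100 and 400 µM. Upward calls alone were 354, 974 and 1212 of 13307 genes, a smaller share than 2 of 19 at each dose. The median log2 fold change of the 19 was -0.00, 0.11 and 0.14. At 10 µM the 2 were NAC053 and CDC48B, at 100 µM NAC078 and CDC48B, and at 400 µM NAC053 and NAC078. The CDC48 segregase pulls ubiquitinated proteins out of complexes and membranes and passes them to the proteasome, and its genes are described here after their values were seen. CDC48B had 77.9, 82.6 and 74.7 CPM at 0 µM, 174, 137 and 175 CPM at 10 µM, 161, 180.3 and 165 CPM at 100 µM, and 100.9, 98.0 and 105 CPM at 400 µM. It was above the untreated libraries at each dose, with log2 fold changes of 1.04 ± 0.14 (adjusted p = 6.71e-05), 1.10 ± 0.14 (adjusted p = 1.11e-05) and 0.37 ± 0.14 (adjusted p = 0.0845) in edgeR's quasi-likelihood test. It was lower at 400 than at 10 µM, by -0.67 ± 0.14 (adjusted p = 0.00409, edgeR's quasi-likelihood test), where 7.68% of all genes were called. From 100 to 400 µM the change of CDC48B was -0.73, which did not pass with all libraries and passed in 3 of the fits without 1 library. In that comparison 0.0451% of all genes were called. CDC48A, the best counted of the 3, had log2 fold changes of 0.02, 0.16 and 0.08, none past the test, and the libraries of each dose overlapped the untreated ones at 665 to 753 CPM. CDC48C had 87.7 to 96.5 CPM at 0 µM, 110.2 to 122 CPM at 100 µM and 104 to 124 CPM at 400 µM, all above the untreated libraries, with log2 fold changes of 0.10, 0.35 and 0.31 (adjusted p = 0.809, 0.104 and 0.13, edgeR's quasi-likelihood test).

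The polyubiquitin genes, whose products are the tag that the proteasome reads, were called higher in part, and only at the lower doses. Of 5 genes, 2 were called higher at 10 µM (UBQ3 and UBQ14), 2 at 100 µM (UBQ10 and UBQ11) and 0 at 400 µM with edgeR's quasi-likelihood test, where none had an unadjusted p under 0.05. Of all genes, 3.73%, 11.5% and 15.5% were called at these doses. UBQ4, the remaining gene, had log2 fold changes of 0.34, -0.30 and -0.24, none past the test. At 400 µM all libraries of UBQ10, UBQ11 and UBQ14 lay above the untreated ones, as in 17.4% of all genes, and UBQ3 and UBQ4 overlapped them. The log2 fold changes of UBQ10, UBQ11 and UBQ14 there were 0.24, 0.32 and 0.29. Between 100 and 400 µM none of the 5 was called. The 5 genes are near-identical repeats of 1 coding unit, so their reads may have been split between them. They were named after their values were seen. UBQ10 had 4813, 5319 and 5865 CPM at 0 µM, 7404, 6396 and 5946 CPM at 10 µM, 6994, 7484 and 8833 CPM at 100 µM, and 6480, 6277 and 6173 CPM at 400 µM. All treated libraries were above the untreated ones, with log2 fold changes of 0.30, 0.54 and 0.24 (SE 0.13 each), and edgeR's quasi-likelihood test was passed at 100 µM (adjusted p = 0.0077), though not without untreated replicate 1. UBQ3 had 304 CPM in RB 10 µM replicate 1 and 10.0 to 29.8 CPM in all other libraries. That library held 87.1% of its 992 reads at 10 µM, and without it the log2 fold change went from 2.84 to 0.50. UBQ14 at 10 µM and UBQ11 at 100 µM also lost their calls in 4 and 3 of the 12 fits without 1 library.

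**Figure D5:**
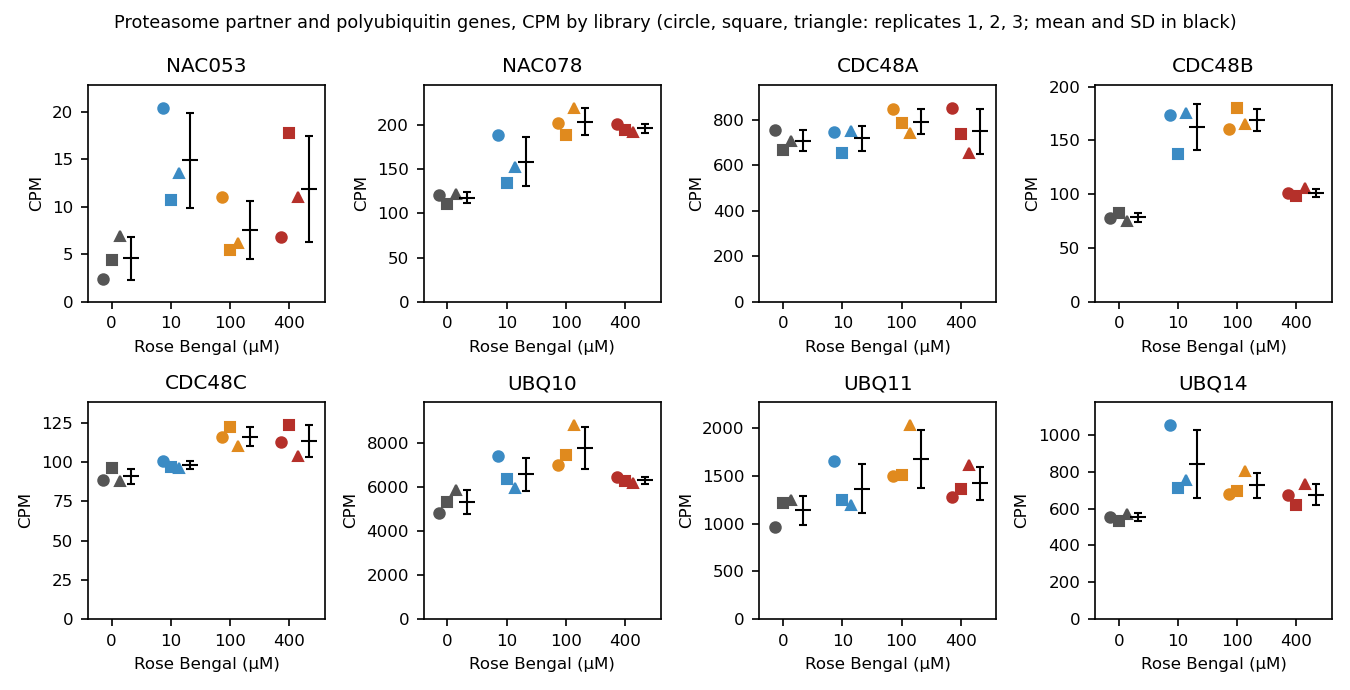
CPM of 5 partner genes and 3 polyubiquitin genes by dose, with 1 point per library and the mean ± SD (n = 3) in black. NAC078 is higher at all 3 doses and CDC48B most at 10 and 100 µM, while CDC48A shows overlapping libraries.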

How the data were processed

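Labels gave the RB dose of each of the 12 libraries. The study's own data listing gives DCMU instead of RB for these files. For the MARS-seq reads the authors used bcl2fastq 2.17.1.14 and cutadapt 1.8.3 (versions from the submitters' processing notes), STAR with Araport 11 as the annotation, and HTSeq-count. The deposited counts were raw reads per gene, without a filter on molecular identifiers, so PCR duplicates remain. The authors kept genes with at least 5 reads in at least 1 sample. The deposited normalized signal (counts over 1 DESeq2 size factor per library) and the deposited regularized log2 values were not used, nor were the authors' fold changes and p-values.

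Counts of 13307 genes in all 12 libraries entered 1 fit of edgeR 4.0.16 (glmQLFit, glmQLFTest, TMM factors) in R 4.3.3 with limma 3.58.1, with two-sided tests and Benjamini-Hochberg adjustment over all genes. The minimum of 5 reads removed no gene. Standard errors are the size of the log2 fold change over the square root of F, and 95% intervals use the matching t quantile, with none for changes under 0.001. Replicate libraries differed by more than counting error (chi-square per gene 3.79 to 12.6).

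Members and gene lists were chosen with earlier results of these data known. Library values are given for members called in any test and, per class, for those with the smallest F test p and the most reads. Partners, copies and polyubiquitin genes were to be named when called at 400 µM. Gene positions and upstream bases came from RefSeq's TAIR10.1 annotation, which matched 13214 of 13307 identifiers (99.3%). The alternatives tried were leaving out libraries, DESeq2 1.42.0, its size factors in edgeR, library totals, a block on the replicate number, a stricter filter, fits of 2 groups, a minimum of 1.5-fold, and other ways to sum core and cap.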

Additional observations from a re-analysis of the deposited data

How the results depend on the processing

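RPN6 at 100 µM kept its direction in all alternatives, with a log2 fold change of 0.40 to 0.68 when 1 library was left out. The cause of each change below was not tested. With library totals, which moved the median of all genes at 100 and 400 µM to -0.15, 0 members and 1 polyubiquitin gene were called at 100 µM and 1 member (RPN13) for 400 against 10 µM, the cap median was -0.23 for 100 and for 400 against 10 µM, and 46.5% of calls at 400 µM were upward, against 58.6%. DESeq2 called 1 member (PAG1) and 1 polyubiquitin gene at 10 µM, 1 member (RPN6) for 400 against 100 µM and 1 (RPN13) for 400 against 10 µM. The stricter filter left 1 member in the F test, the fit of 2 groups 1 polyubiquitin gene at 10 µM, and a minimum of 1.5-fold 0 members at 100 µM. With replicate 1 at 10 µM, replicate 1 at 100 µM and replicate 2 at 400 µM left out together, 0 polyubiquitin genes were called at 10 µM, 3 members and 4 partners at 100 µM, 2 members for 100 against 10 µM and 1 for 400 against 100 µM. The difference of mean log2(CPM + 1) gave a core to cap difference of -0.032 at 100 µM and 0.22 at 400 µM.

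The replicate numbers are not said to pair the libraries, and same-numbered libraries correlated at -0.363 to 0.419 over 18 pairs. The replicate block called 1 member (PAG1) at 10 µM, 1 partner at 400 µM and 1 member in the F test, and left the other counts within 1.5 times.

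With each library left out in turn, the members called ran from 0 to 1 at 10 µM, 0 to 3 at 100 µM, 0 to 0 at 400 µM, 0 to 3 for 100 against 10 µM, 0 to 1 for 400 against 100 µM, 0 to 1 for 400 against 10 µM, and 0 to 5 in the F test. Partners called ran from 1 to 3, 2 to 4 and 1 to 2, and polyubiquitin genes from 0 to 2, 0 to 3 and 0 to 0 at the 3 doses. The cap median for 400 against 10 µM ran from -0.23 to -0.059. The alternatives for copies, partners and polyubiquitin genes and the ratio without RPN6 were chosen after seeing the data. Depth limits the 15 sparse members most, whose fold changes rest on 4 to 64 reads per dose.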
